A study of Homo sapiens with 26 samples.

Results

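The difference between 2 cultured cell lines before any knockdown was induced was examined here: the KELLY line carrying the sh4 hairpin against the KELLY line carrying the empty vector (EV), both given DMSO, the solvent, for 72 h. KELLY cells are a standard culture model of human neuroblastoma in which MYCN is amplified. The sh4 line held a doxycycline-inducible lentiviral FH1UTG vector (F1HUTG in the labels) with a short hairpin RNA against RUNX1T1, and the EV line held that vector without a hairpin. The libraries were taken by their labels, with no measured value in the rule, and the comparison used 6 of the 26 libraries of the series, 3 per line, and every gene in the table (26485 genes, of which 14905 had enough reads to be tested). Other libraries set beside it came from the same sh4 and EV lines after 72 h of doxycycline, which induces the hairpin, and from another line, with a different RUNX1T1 hairpin named shAMB, given DMSO, again with 3 libraries per group. All of these lines were transduced and carried the vector, so no untransduced KELLY cells stood in any comparison, and each line was a single transduced population whose origin from 1 or many clones was not stated in the labels. Nothing in the labels said whether replicates came from separate transductions, so the p-values measured the spread between these libraries, which may be technical.

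RUNX1T1 (also known as ETO or MTG8) is a transcriptional co-repressor without its own sequence-specific DNA binding that recruits histone deacetylases and related complexes to DNA-bound factors. A hairpin under a doxycycline-controlled promoter is meant to be transcribed only when doxycycline releases the Tet repressor, after which the RNA interference machinery cuts or silences messages that match it. The uninduced line is therefore the starting point against which an induced change is read, and the comparison of the uninduced lines shows where they differed before induction.

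Library depth ran from 35115915 to 52445804 expected counts over the 6 libraries. Markers of noradrenergic neuroblastoma were present in both lines. GATA3, a transcription factor of sympathetic neurons, was at 114 ± 5.79 CPM (a gene's count relative to the TMM-scaled total of its library; mean ± SD, n = 3) in sh4 and 114 ± 5.05 CPM in EV (log2 fold change -0.0074, adjusted p = 0.931, edgeR quasi-likelihood test, Benjamini-Hochberg adjusted across the genes tested, as for every adjusted p here). Of the markers of Schwann cell precursors and glia, 7 of 12 were tested and none was called, with a summed level of 27.2 to 27.9 CPM in sh4 and 27.2 to 28.5 CPM in EV and FABP7 at 0. Of the endothelial, blood and epithelial markers, 7 of 17 were tested and none was called, with summed levels of 4.75 to 6.73 CPM and 4.26 to 5.22 CPM, and CD3E, HBB and CDH1 were at 0 in all 6 libraries. As 1.12% of all genes tested were called, 7 genes would mostly hold no call. The median log2 fold change was -0.04 for the glial markers and 0.42 for these other markers (4 of 7 positive), against 0.01 over all genes tested.

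RUNX1T1 itself, on the minus strand of chromosome 8 from 91954967 to 92103385 (GRCh38), was lower in the sh4 line without doxycycline. Its level was 34.68, 33.32 and 35.01 CPM in the 3 sh4 libraries and 44.1, 39.3 and 42.4 CPM in the 3 EV libraries, so the groups did not overlap. The log2 fold change was -0.29 (SE 0.05, adjusted p = 0.0144). In the shAMB line under DMSO, RUNX1T1 stood at 40.8, 42.0 and 39.9 CPM, with a log2 fold change against EV of -0.04 (adjusted p = 0.776), and sh4 was also below shAMB by a log2 fold change of -0.25 (adjusted p = 0.0186). The comparison of sh4 with shAMB called 5445 of the 14905 genes tested, so a call there was common. The lower level in sh4 was also seen in the doxycycline libraries, at 31.2, 33.9 and 30.1 CPM in sh4 and 36.5, 37.8 and 38.6 CPM in EV, a log2 fold change of -0.24 (adjusted p = 0.0021). The line difference under doxycycline minus that under DMSO was 0.04 on the log2 scale (adjusted p = 0.686). The RUNX1T1 call was lost under 4 of the 13 other settings tried: its adjusted p was 0.0733 without sh4 replicate 1, 0.096 without sh4 replicate 2, 0.106 without EV replicate 1 and 0.217 when the 6 libraries were fitted alone, with the log2 fold change between -0.25 and -0.30 in these fits. With the trends of expression with GC content and gene length removed, it was -0.20 (adjusted p = 0.0228).

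Across the genome, 167 of the 14905 genes tested (1.12%) differed between the uninduced lines at an adjusted p under 0.05. Of these, 89 were higher in sh4 (0.597% of genes tested) and 78 were lower (0.523%). The median size of the log2 fold change over the genes called was 0.46, and 34 of the genes called differed at least 2-fold, 19 higher and 15 lower. In all 167 the 3 sh4 values lay on one side of the 3 EV values. The same libraries made the calls, so this adds no support, and the share over all genes tested was not counted. At an unadjusted p under 0.05 there were 4180 genes. A fit of the 6 libraries alone, without the other 12 to estimate the spread, called 23 genes, 13 higher and 10 lower, all of them among the 167. Of the 167 genes called, 13 were called under each of the 13 other settings tried, namely AKR1C1, CAPN6, CARTPT, CNTN4, FGF13, GPC3, IGFBP3, IGFBP5, LGR5, SERPINF1, SLC18A2, SYCP2 and UGT2A1.

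The most extreme differences were of genes that had reads in one line and almost none in the other. These genes were mostly below 1 CPM on average and were chosen for description after their values were seen. C8A, which encodes the alpha chain of complement component 8, had 60, 37 and 36 counts in the EV libraries and 0 in each sh4 library, so that its pooled level was at least 44.2-fold higher in EV (lower bound of the exact 95% counting interval). UGT2A1 and UGT2A2, UDP-glucuronosyltransferases of the olfactory epithelium, share exons, so their reads cannot be fully told apart. UGT2A1 had 266, 199 and 163 counts in EV and 3, 0 and 0 in sh4, a ratio of 260 (95% counting interval 88.7 to 1265). UGT2A2 had 99, 89 and 110 counts in EV and 3, 3 and 0 in sh4, a ratio of 61.8 (28.04 to 170). The other genes with this pattern were CPB1, a pancreatic carboxypeptidase, with 67, 47 and 45 counts in EV and 2, 3 and 2 in sh4 (ratio 28.2, 13.4 to 71.4), DSG3, a desmosomal cadherin, ANKRD30A and SI, the intestinal sucrase-isomaltase.

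C8A, UGT2A1, DSG3 and SI were also near 0 in the third line. In the shAMB libraries C8A had 0, 1 and 0 counts, UGT2A1 had 0 in each, DSG3 had 0 in each and SI had 0 in each, while CPB1 had 4, 16 and 3. For C8A, UGT2A1, DSG3, SI and CPB1, EV therefore stood apart from both hairpin lines. The pattern was present in the doxycycline libraries too, where C8A had 23, 40 and 27 counts in EV and 0 in each sh4 library, and UGT2A1 had 140, 119 and 146 counts in EV and 0, 4 and 4 in sh4. RFPL4B was at 1.37, 1.38 and 1.18 CPM in EV and 0.135, 0.059 and 0 CPM in sh4. Counting intervals cover counting error only.

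The reverse pattern, reads in sh4 and few in EV, was led by PRKCB, which encodes protein kinase C beta. PRKCB had 36, 29 and 19 counts in sh4 and 2, 2 and 0 in EV, a ratio of 16.9 (95% counting interval 6.36 to 63.4), and 1, 1 and 0 counts in shAMB. With doxycycline it had 33, 24 and 27 counts in sh4 and 2, 1 and 1 in EV. LHFPL3, a tetraspan membrane protein gene, was at 0.73, 0.728 and 0.735 CPM in sh4 and 0.16, 0.216 and 0.173 CPM in EV. LHFPL3-AS2, a long non-coding RNA whose gene overlaps the span of LHFPL3 on the opposite strand, was at 1.94, 1.73 and 1.89 CPM in sh4 and 0.297, 0.513 and 0.375 CPM in EV. VEPH1 was at 0.73, 0.885 and 0.759 CPM in sh4 and 0.114, 0.189 and 0.173 CPM in EV. For PRKCB, LHFPL3-AS2 and VEPH1 the shAMB libraries lay near the EV libraries, as did 2 of the 3 shAMB libraries for LHFPL3, so sh4 was the line that stood apart.

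**Figure D1:**
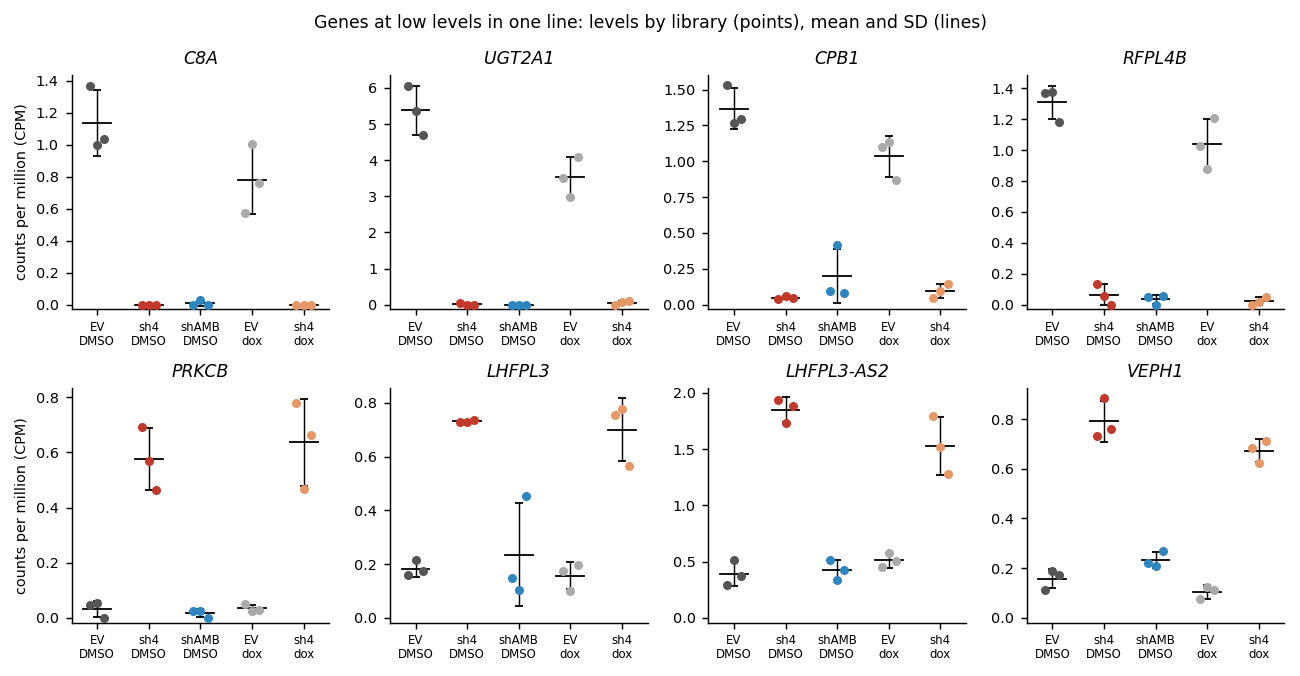
Level in CPM (vertical axes) of 8 genes in each library of EV, sh4 and shAMB under DMSO and of EV and sh4 under doxycycline (dox). Points are libraries and lines are the mean and SD of 3. C8A, UGT2A1, CPB1 and RFPL4B had reads in both EV groups and few or none elsewhere, except for 1 shAMB library for CPB1, and PRKCB, LHFPL3, LHFPL3-AS2 and VEPH1 were highest in both sh4 groups.

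RefSeq promoter sequences (GRCh38.p14) were matched by symbol for 120 of the 167 genes called, too few to compare the called genes as sets. The 250 bases before the start are shown for the genes leading each pattern, C8A and UGT2A1 with reads in EV and PRKCB and LHFPL3 with reads in sh4, all 4 chosen after their values were seen, 5′ to 3′ on the strand of the gene, with each CG dinucleotide in capitals because CG-rich and CG-poor promoters are the main promoter classes of human genes. The positions are chr1:56854547-56854796 on the plus strand for C8A, chr4:69653248-69653497 on the minus strand for UGT2A1, chr16:23835733-23835982 on the plus strand for PRKCB and chr7:104328353-104328602 on the plus strand for LHFPL3.
C8A: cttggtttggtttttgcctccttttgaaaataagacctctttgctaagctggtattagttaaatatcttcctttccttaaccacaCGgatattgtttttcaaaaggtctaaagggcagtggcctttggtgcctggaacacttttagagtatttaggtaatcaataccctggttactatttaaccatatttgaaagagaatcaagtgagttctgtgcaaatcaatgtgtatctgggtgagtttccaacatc
UGT2A1: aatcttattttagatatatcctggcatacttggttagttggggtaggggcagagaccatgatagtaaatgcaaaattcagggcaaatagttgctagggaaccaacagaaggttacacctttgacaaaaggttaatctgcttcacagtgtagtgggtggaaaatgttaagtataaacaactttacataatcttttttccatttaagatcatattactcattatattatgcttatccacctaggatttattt
PRKCB: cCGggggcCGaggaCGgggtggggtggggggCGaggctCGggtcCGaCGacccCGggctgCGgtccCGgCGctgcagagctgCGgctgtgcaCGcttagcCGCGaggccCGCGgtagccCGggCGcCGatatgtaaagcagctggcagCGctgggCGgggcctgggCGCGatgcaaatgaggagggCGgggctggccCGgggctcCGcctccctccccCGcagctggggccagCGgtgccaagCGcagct
LHFPL3: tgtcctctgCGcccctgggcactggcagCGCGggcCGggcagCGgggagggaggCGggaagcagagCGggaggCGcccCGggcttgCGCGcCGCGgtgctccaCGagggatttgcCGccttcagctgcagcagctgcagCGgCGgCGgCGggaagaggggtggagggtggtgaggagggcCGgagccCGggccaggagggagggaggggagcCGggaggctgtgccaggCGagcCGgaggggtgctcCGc
C8A had 1 CG in this stretch and UGT2A1 had 0, and PRKCB had 30 and LHFPL3 had 25. Of the other genes with reads in EV and few in sh4, SI and CPB1 had 0 CG in these bases, UGT2A2 had 3, DSG3 had 4 and RFPL4B had 5. Of other genes higher in sh4, CNTN4 had 40, FGF13 had 29, CAPN6 had 5 and VEPH1 had 3, so the CG counts of the genes with opposite patterns overlapped.

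Among genes with at least 1 CPM on average, those highest in sh4 included FGF13, CSMD1, CNTN4 and PNMA5. FGF13, an intracellular regulator of voltage-gated sodium channels and microtubules, was at 6.15, 5.98 and 6.41 CPM in sh4 and 1.62, 1.62 and 1.90 CPM in EV (log2 fold change 1.85, SE 0.15, adjusted p = 5.92e-06). shAMB, at 2.07, 2.18 and 2.19 CPM, lay close above EV. CSMD1, a large complement-regulating membrane protein gene, was at 3.46, 2.73 and 3.13 CPM in sh4 and 0.776, 0.89 and 0.692 CPM in EV (log2 fold change 1.98, adjusted p = 4.59e-05). CNTN4, an axon-associated adhesion molecule, was at 3.79, 4.52 and 5.04 CPM in sh4 and 1.78, 1.62 and 1.47 CPM in EV (log2 fold change 1.45, adjusted p = 0.000198). In shAMB, CSMD1 was at 1.14 to 1.79 CPM and CNTN4 at 2.37 to 3.02 CPM, between sh4 and EV. The rule by which these genes were named required that the sh4 and EV groups not overlap. PNMA5 was at 6.07, 6.37 and 4.14 CPM in sh4 and 2.26, 2.13 and 2.25 CPM in EV, a log2 fold change of 1.32 (adjusted p = 0.0023), with the third sh4 library the lowest of the sh4 values.

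Other genes among the largest positive differences were of mixed function. CAPN6, a calpain without protease activity that stabilizes microtubules, was at 17.8, 18.8 and 19.4 CPM in sh4 and 9.54, 8.69 and 8.04 CPM in EV (log2 fold change 1.09, SE 0.07, adjusted p = 1.2e-06). IGFBP3, a secreted binding protein of insulin-like growth factors, was at 24.2, 25.5 and 23.7 CPM in sh4 and 11.3, 12.4 and 12.5 CPM in EV (log2 fold change 1.02, SE 0.07, adjusted p = 1.2e-06). Its family member IGFBP5 was at 76.5, 72.3 and 69.3 CPM in sh4 and 43.0, 42.0 and 46.2 CPM in EV (log2 fold change 0.73, adjusted p = 4.95e-05). For both binding proteins the shAMB libraries lay between the other lines, at 17.7 to 18.97 CPM for IGFBP3 and 47.1 to 56.6 CPM for IGFBP5. SERPINF1, which encodes the secreted factor PEDF, was at 18.7, 18.7 and 15.3 CPM in sh4 and 7.35, 8.71 and 8.42 CPM in EV (log2 fold change 1.11, adjusted p = 5.81e-05). For SERPINF1 shAMB, at 13.5 to 16.3 CPM, overlapped sh4 and lay above EV. Further genes had log2 fold changes of 0.80 for RAB34, 0.81 for ST8SIA4, 0.84 for AKR1C3, 0.88 for ST8SIA1, 0.93 for the matrix protein gene MFAP4 and 1.04 for GSN, the actin-severing protein gelsolin. RAB34 was not called with the trends of expression with GC content and gene length removed (log2 fold change 0.36, adjusted p = 0.111). ST8SIA1 and ST8SIA4 both encode sialyltransferases, the former of GD3 ganglioside synthesis and the latter of polysialic acid synthesis. AKR1C3 and AKR1C1 (log2 fold change 0.77) are close paralogs, and reads shared between them cannot be assigned with certainty.

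The largest negative differences outside the near-zero genes were of a mixed set. XAGE1B and XAGE1E, cancer-testis antigen genes with identical rows in the table, were at 2.61, 3.30 and 2.67 CPM in sh4 and 5.11, 6.10 and 6.31 CPM in EV, and were counted as 2 genes although they cannot be told apart (log2 fold change -1.02, adjusted p = 0.000162). SYCP2, a component of the meiotic synaptonemal complex, was at 4.63, 4.44 and 4.90 CPM in sh4 and 9.19, 8.71 and 8.16 CPM in EV (log2 fold change -0.90, adjusted p = 0.000339), and shAMB, at 4.12 to 4.71 CPM, lay with sh4. OPCML, a neural cell adhesion molecule, was at 1.17, 1.44 and 1.69 CPM in sh4 and 3.08, 2.75 and 2.68 CPM in EV (log2 fold change -0.99, adjusted p = 0.0107). COL6A6, a collagen VI chain, was at 34.96, 30.7 and 33.8 CPM in sh4 and 51.1, 47.9 and 46.6 CPM in EV (log2 fold change -0.55, adjusted p = 0.000244), with shAMB at 32.0 to 32.3 CPM. ZNF208, HMGN3-AS1, PROM1, SPINK5, GPR155 and TGFB2 had log2 fold changes from -0.75 to -0.54. PROM1 encodes the stem cell surface protein CD133 and TGFB2 encodes a transforming growth factor.

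**Figure D2:**
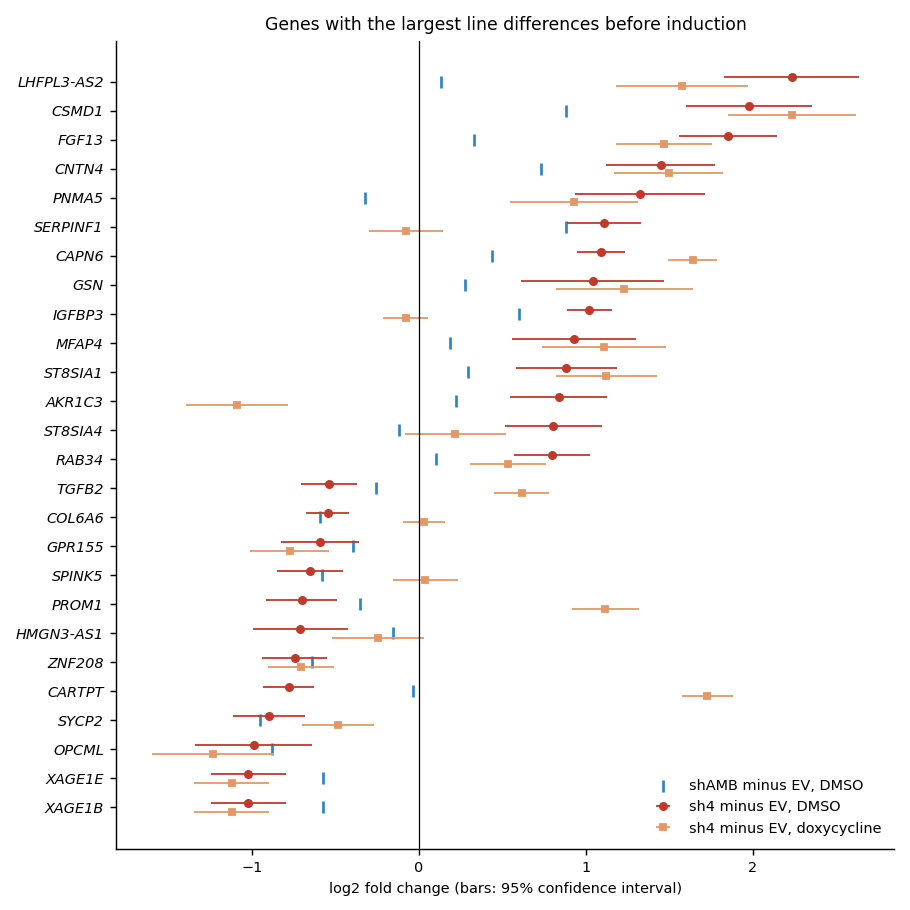
Log2 fold changes (horizontal axis) of the 14 genes with the largest positive and 12 of the 14 with the largest negative difference at 1 CPM or more, with UGT2A1 and UGT2A2 left out because they are near 0 in sh4. Circles are sh4 minus EV under DMSO, squares the same under doxycycline (bars are 95% confidence intervals), and ticks are shAMB minus EV under DMSO, which shares the EV libraries with the circles. AKR1C3, PROM1, TGFB2 and CARTPT lie on opposite sides of 0 in DMSO and doxycycline.

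Genes of catecholamine synthesis, storage and granules included 4 called genes of 21 tested (19%, beside 1.12% of all genes), each lower in sh4. SLC18A2, the vesicular monoamine transporter VMAT2, was at 182, 187 and 198 CPM in sh4 and 270, 256 and 251 CPM in EV (log2 fold change -0.46, SE 0.05, adjusted p = 0.000254), and shAMB lay between them at 226 to 232 CPM. An antisense gene overlaps 56% of its exon bases, and how strand was used in counting is not given in the sources used here. MAOA, which degrades monoamines, was at 267, 292 and 292 CPM in sh4 and 352, 347 and 331 CPM in EV (log2 fold change -0.28, adjusted p = 0.0208). SCG2, a secretogranin of dense-core vesicles, was at 45.1, 50.6 and 50.4 CPM in sh4 and 66.7, 61.9 and 60.6 CPM in EV (log2 fold change -0.37, adjusted p = 0.016). CARTPT, a neuropeptide precursor, was at 13.0, 15.05 and 13.2 CPM in sh4 and 21.9, 24.9 and 24.2 CPM in EV (log2 fold change -0.78, SE 0.08, adjusted p = 5.23e-05). The synthetic enzymes did not pass: TH, which makes L-DOPA, differed by 0.78 on the log2 scale (SE 0.38, adjusted p = 0.183) and DBH, which makes noradrenaline, by 0.45 (SE 0.30, adjusted p = 0.298), with overlapping groups for both. The median of the list was 0.02, against 0.01 over all genes tested.

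MYCN, the amplified oncogene of the line, was at 2323, 2219 and 2035 CPM in sh4 and 2146, 2138 and 2298 CPM in EV, a log2 fold change of -0.0010 (adjusted p = 0.994) with overlapping groups. For MYCN the processing mattered, since with the GC content and length trends removed the log2 fold change was -0.28 (adjusted p = 0.016). MAX, the dimerization partner of MYC proteins, was at 56.2, 56.8 and 50.6 CPM in sh4 and 50.5, 47.8 and 52.8 CPM in EV, and was not called (log2 fold change 0.12, adjusted p = 0.178). In the list of RUNX1T1, its relatives and the co-repressor genes, 2 of 27 genes were called (7.41%), RUNX1T1 lower and its paralog CBFA2T2 higher. CBFA2T2 was at 51.6, 46.4 and 46.3 CPM in sh4 and 38.8, 39.6 and 40.8 CPM in EV (log2 fold change 0.28, adjusted p = 0.0439). CBFA2T2 was called under only 2 of the 13 other settings, DESeq2 and removal of the GC content and length trends, and its adjusted p was 0.0505 to 0.252 without single libraries.

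**Figure D3:**
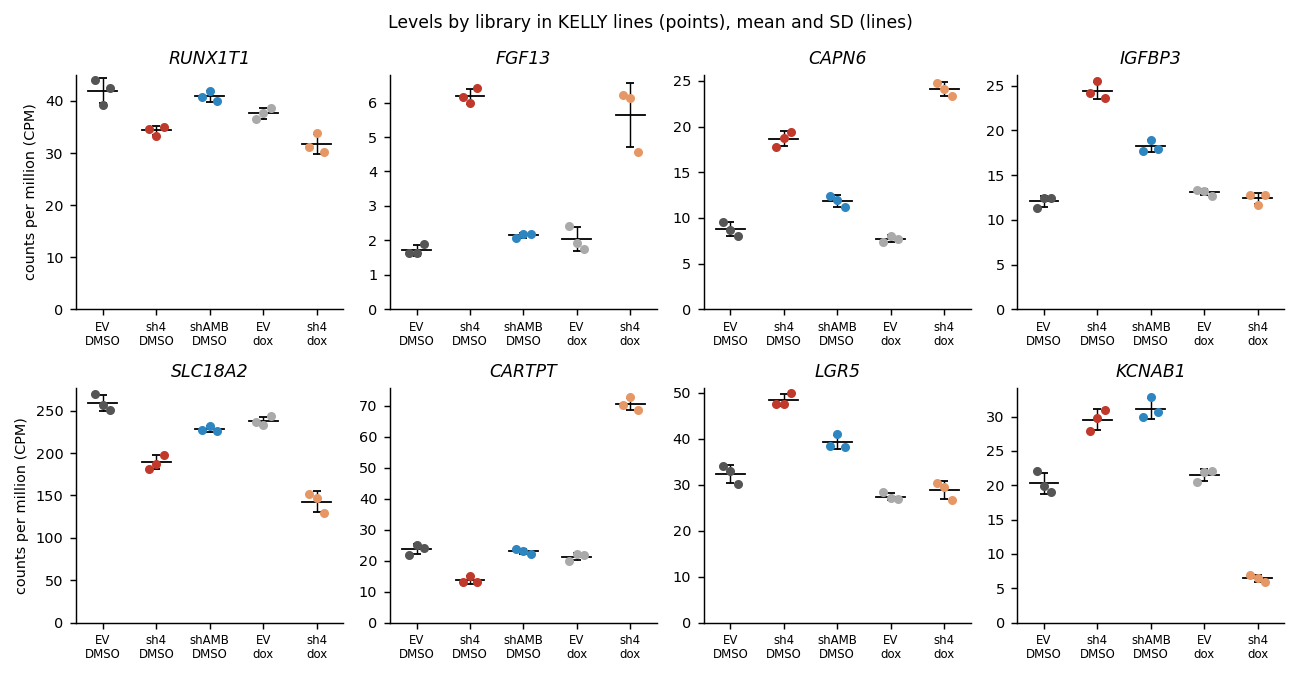
Level in CPM (vertical axes, from 0) of 8 genes in each library of EV, sh4 and shAMB under DMSO and of EV and sh4 under doxycycline. Points are libraries and lines are the mean and SD of 3. In RUNX1T1 the sh4 libraries lie below EV in both treatments, and in CARTPT and KCNAB1 the side of sh4 changes with doxycycline.

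Signalling genes called before induction were few and went in both directions. In the Wnt, Notch and retinoic acid list 3 of 37 genes (8.11%) were called, each higher in sh4. LGR5, an R-spondin receptor that strengthens Wnt signals, was at 47.6, 47.5 and 49.9 CPM in sh4 and 33.9, 32.9 and 30.2 CPM in EV (log2 fold change 0.58, SE 0.06, adjusted p = 8.91e-05). DKK1, a secreted Wnt antagonist, was at 88.6, 106 and 101 CPM in sh4 and 79.8, 74.0 and 70.8 CPM in EV (log2 fold change 0.40, adjusted p = 0.0066). For DKK1 shAMB, at 112 to 120 CPM, lay above both. LEF1, a transcription factor that acts with beta-catenin, was at 5.92, 5.86 and 5.14 CPM in sh4 and 3.67, 3.56 and 3.43 CPM in EV (log2 fold change 0.67, adjusted p = 0.0335). These genes thus include an activator, an antagonist and an effector of the pathway. The call was kept under all 13 other settings for LGR5, 11 for DKK1 and only 4 for LEF1. Among growth factor receptor and neurotrophic genes, 3 of 27 (11.1%) were called: IGFBP5 higher, GFRA1, the GDNF co-receptor, lower (log2 fold change -0.30, adjusted p = 0.000565), and EGFR lower (log2 fold change -0.31, adjusted p = 0.0445). EGFR was called under only 4 of the 13 other settings, and GFRA1 under 12.

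Neural adhesion and guidance genes gave 4 calls of 41 (9.76%), CNTN4 higher and CDH13, ROBO2 and EPHA7 lower, with log2 fold changes of -0.41, -0.25 and -0.30. Of these, ROBO2 and EPHA7 were not called with the GC content and length trends removed (adjusted p = 0.171 and 0.0504). Ion channel genes gave 4 calls of 47 (8.51%). KCNAB1, a potassium channel beta subunit, was at 27.9, 29.8 and 31.0 CPM in sh4 and 22.02, 19.9 and 18.97 CPM in EV (log2 fold change 0.54, adjusted p = 0.000702), and SCN7A, a sodium channel gene, was higher at 0.334 to 0.769 CPM against 0.115 to 0.189 CPM. For KCNAB1 shAMB lay with sh4, at 29.96 to 32.9 CPM. SCN7A had 40, 17 and 17 counts in sh4 and was called under only 2 of the 13 other settings. KCNA3 and KCNIP4, a potassium channel subunit and a channel-interacting protein, had log2 fold changes of -0.46 each. KCNA3 was called under 5 of the 13 other settings, KCNIP4 under 7 and KCNAB1 under 12. Neuronal cytoskeleton and vesicle genes gave 2 calls of 39 (5.13%), DCX, the doublecortin of migrating neurons (log2 fold change 0.40, adjusted p = 0.00286), and NEFL, the neurofilament light chain (log2 fold change 0.26, adjusted p = 0.00833), both higher. In shAMB both were also above EV, with log2 fold changes against EV of 0.38 for DCX and 0.46 for NEFL.

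Among cancer-testis antigen genes 4 of 22 (18.2%) were called, XAGE1B and XAGE1E lower and MAGEA3 and MAGEA6 higher (log2 fold changes 0.71 and 0.47). MAGEA3 and MAGEA6 are near-identical, so the split of reads between them is uncertain. In shAMB, MAGEA3 was at 8.01 to 9.68 CPM, against 1.66 to 2.13 CPM in sh4 and 1.05 to 1.27 CPM in EV. Of 489 zinc finger genes with ZNF symbols, 3 were higher (ZNF114, ZNF618 and ZNF785) and 4 were lower (ZNF208, ZNF280B, ZNF551 and ZNF587B), a share of 1.43% that lay near the 1.12% of all genes, and ZNF785 was not called with the GC content and length trends removed (adjusted p = 0.132). A single gene was called in each of 7 further lists. These were COL4A1 of 25 collagen and matrix genes (log2 fold change 0.54), SPRY4 of 34 immediate early and NF-kappaB genes (0.27), TNFRSF10B of 26 p53 targets (0.16), PCDHB2 of 52 clustered protocadherins (0.29), PCGF5 of 30 Polycomb genes (-0.33), SLC7A11 of 31 ATF4 and unfolded protein genes (-0.35) and LINC00997 of 165 LINC genes (-0.40). The share called ran from 0.606% of the LINC genes to 4% of the collagen and matrix genes, beside 1.12% of all genes. A single call is too few to describe a list. Of the 13 other settings, TNFRSF10B was called under 3, PCGF5 and SLC7A11 under 4 each and SPRY4 and LINC00997 under 5 each. COL4A1 was called under 9 and PCDHB2 under 12.

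No gene was called in the lists of mesenchymal-state markers (23 tested), the MYC and MAX network (11), MYC-driven biosynthesis (48), E2F-driven replication (39), G2 and mitosis (39), RNA interference machinery (18), interferon response (27), hypoxia and glycolysis (33), cholesterol synthesis (29), imprinted genes (24), HOX genes (14), small nucleolar RNAs (10) and histone genes (18). Their medians lay between -0.12 for small nucleolar RNAs and 0.27 for histone genes on the log2 scale. A positive log2 fold change was held by 9 of the 39 G2 and mitosis genes (median -0.10). Among all genes tested it was held by 7612 of 14905 (median 0.01). The log2 fold change also rose with GC content, as described below, and a difference of this list beyond that trend was not tested. As 1.12% of all genes tested were called, lists of these sizes would often hold no called gene. The absence of calls therefore does not show that the lines were alike in these lists. Protein-coding genes of the mitochondrial genome were not among the genes tested.

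The same 2 lines were compared again in the 6 doxycycline libraries, which share no library with the DMSO comparison. There, 22.2% of all genes tested were called higher in sh4 and 16.8% were called lower. Of the 89 genes higher in uninduced sh4, 55 (61.8%) were called higher again and 7 (7.87%) were called lower. Of the 78 genes lower in uninduced sh4, 33 (42.3%) were called lower again and 16 (20.5%) were called higher, the latter share near the 22.2% of all genes. Among the 34 genes with at least a 2-fold difference, 27 were called in the same direction and 1, C2CD4A, in the opposite direction.

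Some large differences were similar in both treatments. CNTN4 had a log2 fold change of 1.50 with doxycycline beside 1.45 without it, CSMD1 of 2.24 beside 1.98, FGF13 of 1.47 beside 1.85, XAGE1B of -1.12 beside -1.02 and ZNF208 of -0.71 beside -0.75. The test of the change in the line difference was not passed for these genes (adjusted p from 0.169 for FGF13 to 0.889 for CNTN4). It was passed by 45 of the 89 genes higher (50.6%) and 45 of the 78 genes lower (57.7%), beside 32.6% of all genes tested, and this test uses the DMSO libraries by which the genes were called.

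Other genes crossed from one side to the other. CARTPT, lower in uninduced sh4, was at 70.3, 72.7 and 68.6 CPM in sh4 with doxycycline and 20.0, 22.3 and 21.6 CPM in EV, a log2 fold change of 1.73 (adjusted p = 1.32e-10). KCNAB1, higher in uninduced sh4, was at 6.90, 6.52 and 5.91 CPM in sh4 with doxycycline and 20.5, 21.9 and 22.1 CPM in EV (log2 fold change -1.74, adjusted p = 1.1e-10). AKR1C1 went from 11.6, 12.2 and 11.3 CPM in uninduced sh4 to 2.72, 2.32 and 2.90 CPM with doxycycline, with EV between 6.45 and 7.77 CPM in both treatments. GFRA1, ROBO2, KCNA3, PROM1 and TGFB2, which were lower in uninduced sh4, were called higher with doxycycline, with log2 fold changes of 0.42, 0.90, 1.04, 1.12 and 0.62. IGFBP3, SERPINF1 and LGR5, which were higher in uninduced sh4, had log2 fold changes of -0.08, -0.08 and 0.08 with doxycycline and were not called there.

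**Figure D4:**
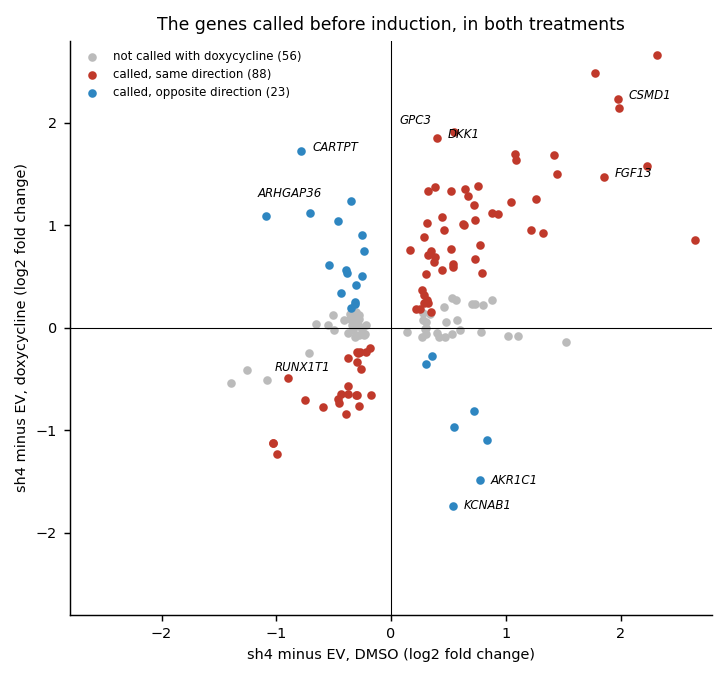
Log2 fold change of sh4 minus EV under DMSO (horizontal axis) and under doxycycline (vertical axis) for the 167 genes called under DMSO. Each point is a gene, coloured by its call with doxycycline (88 same direction, 23 opposite, 56 not called), and 10 genes beyond 2.8 on an axis, including C8A and PRKCB, are not drawn. Most points lie on the same side in both treatments, with CARTPT and KCNAB1 among those on opposite sides.

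The log2 fold change between the lines also rose with the GC content of genes. Over the 14401 genes with a known GC content, the median log2 fold change rose from -0.13 in the 1441 genes with the lowest GC content to 0.53 in the 1440 with the highest, and across genes Pearson's r was 0.52 (a description, since genes are not independent replicates). The slope of log2 CPM per 10 points of GC was 0.26, 0.11 and -0.03 in the 3 sh4 libraries. In the 3 EV libraries it was -0.27, -0.13 and 0.05. The slopes varied within each line, and that of replicate 3 was lower in sh4 than in EV. With 3 libraries per line, the trend cannot be assigned to the lines rather than to single libraries. The median GC content was 49.2% in the genes higher in sh4, 43.4% in the genes lower and 47.9% in all. With the trends with GC content and length removed in each library, a setting added after the data were seen, the count of genes called was 838 of 14401 (5.82%), 394 higher and 444 lower. That fit called 147 of the 165 genes it shared with the 167, and in 163 of the 165 the sign was the same.

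**Figure D5:**
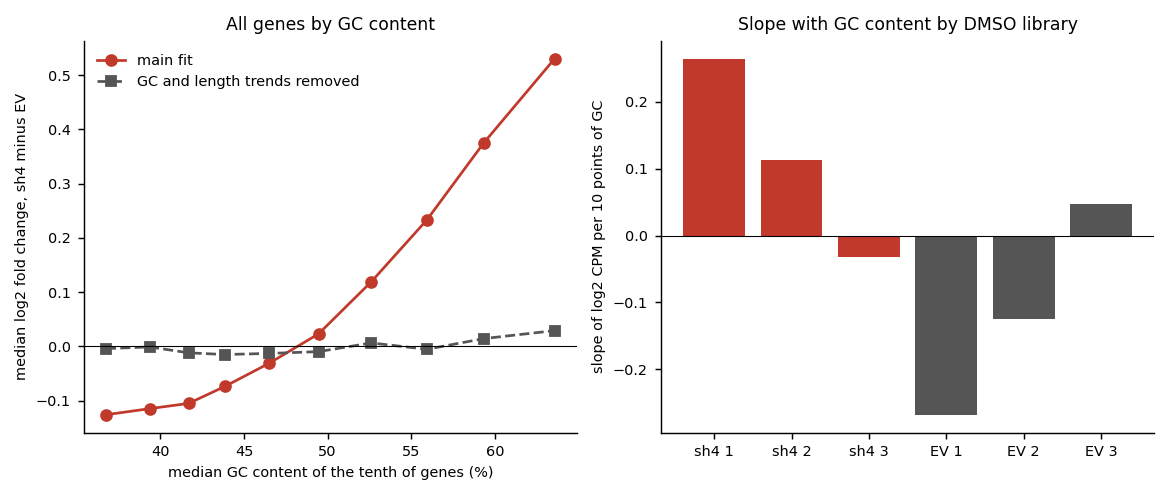
Left, median log2 fold change of sh4 minus EV under DMSO (vertical axis) over 10 equal groups of genes ordered by GC content (horizontal axis, in %), in the fit without (circles) and with (squares) removal of the trends with GC content and length. Right, slope of log2 CPM per 10 points of GC content in each of the 6 DMSO libraries, where bars from 0.26 in sh4 replicate 1 to -0.27 in EV replicate 1 can be compared.

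By position, the share of genes called was highest on the X chromosome (15 of 535 genes, 2.8%) and chromosome 10 (15 of 595, 2.52%), beside 1.12% of all genes. The X count holds XAGE1B and XAGE1E, which have identical rows. On chromosome 21, 0 of 129 genes were called, and at 1.12% so few genes would often hold few or no calls. The median log2 fold change by chromosome ran from -0.09 on chromosome 13 to 0.30 on chromosome 19, whose genes had median GC contents of 42.3% and 57.9%. With the GC content and length trends removed these medians were -0.02 and 0.02. In the order of genes tested, 6 pairs of neighbours were both called, among them UGT2A1 with UGT2A2, HSPA1L with HSPA1B, LHFPL3 with LHFPL3-AS2, XAGE1B with XAGE1E and CAPN6 with DCX. The spans of the UGT2A, LHFPL3 and XAGE1 pairs overlap, and how many pairs would arise by chance was not counted. CAPN6 and DCX, 23.3 kb apart, were both higher in sh4.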

How the data were processed

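Per the labels, total RNA was taken after 72 h from KELLY lines, prepared with a SMARTer Stranded Total RNA kit and sequenced as pairs of 100 bases, although the labels also call the molecule polyA RNA. The authors deposited RSEM expected counts per gene, made with STAR, SAMtools and RSEM on hg38 (tool versions and the strand setting not given in the sources used here), and these values were rounded to whole numbers. The authors also deposited TPM values per gene, which served an alternative test. Neg in a column header was taken to mean DMSO and Pos doxycycline, and sample titles gave the groups. Xenograft tables were not used.

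Genes were filtered with filterByExpr, scaled by TMM and tested with edgeR 4.0.16 (quasi-likelihood) in R 4.3.3, with 1 mean per group over all 18 culture libraries, and called at an adjusted p under 0.05. The test was checked on simulated counts. CPM used TMM-scaled library sizes. A group at or under 3 counts in each library was treated as near 0. Alternatives used DESeq2 1.42.0, limma 3.58.1 on log2(TPM + 1) and other filters, scalings and sample sets. GC content and gene overlaps came from GENCODE and hg38. Coordinates are those of RefSeq for GRCh38, matched by symbol.

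Named genes were the 14 largest in each direction among called genes with at least 1 CPM on average and no overlap between groups, plus RUNX1T1, MYCN, MAX and called list members. Other genes were named after their values were seen, and a few results are not reported here. The comparison, members and lists were chosen with earlier results of these data known.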

Additional observations from a re-analysis of the deposited data

Results flagged for a closer look

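Among the 66 named genes, the difference between the sh4 and EV lines itself changed with doxycycline in 32, by the interaction term of the edgeR quasi-likelihood fit at an adjusted p under 0.05, beside 32.6% of all genes tested. Values below are the line difference under doxycycline minus that under DMSO on the log2 scale, and each is flagged because the same contrast differed between treatments. The DMSO libraries that chose the genes also enter this term, and the cause was not tested.

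In 10 genes the lines were called in opposite directions in the 2 treatments. Among them, the change was 2.51 for the neuropeptide gene CARTPT, 1.82 for PROM1, 1.50 for KCNA3, 1.16 for TGFB2, 1.16 for ROBO2, 0.96 for LINC00997 and 0.72 for GFRA1, which were lower in uninduced sh4. It was -2.28 for KCNAB1 and -1.93 for AKR1C3, which were higher in uninduced sh4.

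In 13 genes the line difference under DMSO was not called under doxycycline. The change was -1.19 for SERPINF1, -1.10 for IGFBP3, -0.59 for ST8SIA4, -0.50 for LGR5 and -0.45 for DCX, and it was 0.69 for SPINK5, 0.58 for COL6A6, 0.48 for CDH13, 0.46 for EGFR, 0.43 for SLC7A11, 0.40 for ZNF587B, 0.40 for ZNF551 and 0.31 for PCGF5.

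In 7 genes the lines were called in the same direction in both treatments and the difference was larger under doxycycline, by 1.45 for DKK1, 0.62 for LEF1, 0.59 for TNFRSF10B, 0.55 for CAPN6 and 0.31 for IGFBP5, and by -0.28 for SLC18A2 and -0.48 for MAOA. MYCN and MAX, not called under DMSO, had changes of 0.61 and -0.30.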

How the results depend on the processing

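The direction of each named gene called was kept under all settings tried, while the number of genes called was not stable. Against 167 genes called, of which 88 were called in the same direction with doxycycline, DESeq2 called 351 (147 in the same direction with doxycycline), the 6 libraries alone called 23, removal of the GC content and length trends called 838 (416), a minimum of 2-fold left 34 and an adjusted p under 0.01 left 69. RLE scaling gave 152 genes, no filter on low counts 121 and limma on log2(TPM + 1) 117. Leaving out single libraries gave 75 (without sh4 replicate 1) to 269 genes (without EV replicate 3), and 48 to 123 of them called in the same direction with doxycycline, with 78 to 80 genes without sh4 replicate 2, EV replicate 1 or EV replicate 2. Why these counts differ was not tested. With the GC content and length trends removed, 46.4% of the genes higher in sh4 were called higher with doxycycline, beside 24.7% of all genes, and 52.5% of the genes lower were called lower, beside 32.3% of all genes. In that fit 26.6% of the genes higher were called lower with doxycycline, beside 32.3% of all genes. Of the genes lower, 22.1% were called higher, beside 24.7% of all genes.

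The log2 fold change of RUNX1T1 was -0.29 with the 6 libraries alone, where it was not called (adjusted p = 0.217), and -0.33 to -0.25 without single libraries. That of MYCN, not called under these settings, was 0.0015 with a replicate block and -0.054 to 0.049 without single libraries, and it was -0.28 and called with the GC content and length trends removed. The correlations of same-numbered deviations were -0.45, -0.0072 and -0.43. The slope with GC content fell with replicate number in sh4 and rose in EV. These correlations therefore cannot show whether the replicate numbers paired the samples. A replicate block called 138 genes, with RUNX1T1 at -0.29 (adjusted p = 0.0344) and 78 genes in the same direction with doxycycline. Of the 64 named genes called, 11 lost the call under the block.

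With 3 libraries per line and 35115915 to 52445804 counts, differences in genes under 1 CPM rest on few reads.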

Other observations

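Some of the genes called fall outside the lists and the rule for named genes, and were picked for description after their values were seen. The endothelin receptors went in opposite directions: EDNRA was at 42.5, 46.7 and 47.0 CPM in sh4 and 38.3, 34.5 and 34.1 CPM in EV (log2 fold change 0.35, adjusted p = 0.0158), and EDNRB was at 7.09, 6.31 and 6.83 CPM in sh4 and 10.4, 9.04 and 9.11 CPM in EV (log2 fold change -0.50, adjusted p = 0.0141). The groups did not overlap for either receptor. GPC3, a cell surface proteoglycan, was at 43.0, 44.1 and 47.4 CPM in sh4 and 30.9, 32.2 and 29.0 CPM in EV (log2 fold change 0.55, adjusted p = 0.000161), and at 101 to 116 CPM in sh4 with doxycycline. BAMBI, a pseudoreceptor that dampens TGF-beta signals, was at 46.0, 49.8 and 48.1 CPM in sh4 and 36.9, 38.4 and 39.6 CPM in EV (log2 fold change 0.32, adjusted p = 0.00333). HGF, the ligand of the MET receptor, was at 22.7, 22.4 and 27.01 CPM in sh4 and 32.9, 31.4 and 28.9 CPM in EV (log2 fold change -0.37, adjusted p = 0.029).

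Heat shock genes DNAJB1, HSPA1B and HSPA1L were each higher in sh4, with log2 fold changes of 0.47, 0.48 and 1.22. HSPA1B has close paralogs, so its reads are uncertain. DNAJB1 was at 93.6, 94.4 and 88.6 CPM in sh4 and 62.1, 63.8 and 74.5 CPM in EV (adjusted p = 0.00169), but neither DNAJB1 nor HSPA1B was called with the GC content and length trends removed (log2 fold change of DNAJB1 0.22, adjusted p = 0.0899). The pituitary adenylate cyclase receptor gene ADCYAP1R1 was at 111, 113 and 108 CPM in sh4 and 88.2, 87.6 and 92.6 CPM in EV (log2 fold change 0.31, adjusted p = 0.000336), and at 0.17 with those trends removed (adjusted p = 0.0749). CDK6, a G1 kinase, was at 380, 381 and 427 CPM in sh4 and 532, 481 and 467 CPM in EV (log2 fold change -0.32, adjusted p = 0.0417), and was called under only 4 of the 13 other settings.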
